A study of Mus musculus with 2 samples.

Results

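Neutrophils carry a group of very abundant transcripts that code for the proteins of their granules and for the calgranulins of their cytosol. The genes followed here, by symbol, are S100a8, S100a9, Ngp, Camp, Ltf, Lcn2, Retnlg, Stfa1, Mpo and Elane. They are 10 of the 32285 features that both libraries list, and all 10 were detected. The cells were not sorted as neutrophils. They were splenic CD4+YFP+7AAD- cells (CD4 as the study's methods state) of 7-day-old mice, taken as regulatory T cells (Tregs) because YFP and Cre are driven by Foxp3, the transcription factor that defines Tregs. The question was therefore which barcodes hold these transcripts and how far their level in T barcodes can be told from free RNA, which drifts between cells and enters every droplet.

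There was 1 library of WT mice (Foxp3-Cre) and 1 of KO mice (Zfp335fl/flFoxp3-Cre), both labelled C57BL/6J, and in KO mice Cre removes floxed Zfp335 in cells that have expressed Foxp3. Both groups carry the Foxp3-driven Cre, and red cells had been lysed before the sort. By design the deletion is limited to such cells, and the number of mice behind each library is not stated. A barcode entered when it had 300 genes or more and no more than 5% of its UMIs from mitochondrial genes, which left 8053 of 14524 WT and 13767 of 18134 KO barcodes, with medians of 5061 and 2713 UMIs. A UMI is a tag that counts 1 transcript molecule. Zfp335 had 435 UMIs (8.03 CPM) in the kept WT barcodes and 58 UMIs (1.01 CPM) in the kept KO barcodes, a KO to WT ratio of 0.125 (0.0936 to 0.165), where CPM are counts per 1000000 UMIs of the same set of barcodes. Outside T cells its UMIs were few, at 6 in WT and 4 in KO neutrophil-like barcodes and 14 and 3 in erythroid-like barcodes. The libraries shared 70 barcode sequences, 29 of them among the kept barcodes of each. With 1 library per genotype there was no replicate. No test between genotypes was possible, and the 95% intervals in parentheses cover counting error only.

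As background, the granules of a neutrophil are filled in the order in which their genes are switched on. Mpo (myeloperoxidase, which makes hypochlorous acid) and Elane (neutrophil elastase, a serine protease) belong to the azurophil granules and are transcribed in promyelocytes. Ltf (lactoferrin, which binds iron), Lcn2 (lipocalin 2, which binds bacterial siderophores), Camp (the precursor of the antimicrobial cathelicidin peptide) and Ngp (neutrophilic granule protein, a relative of cystatins) are products of the later specific granules. S100a8 and S100a9 form calprotectin, a calcium-binding dimer that makes up much of the neutrophil cytosol. Retnlg (resistin-like gamma) marks the later, more mature cells, and Stfa1 (stefin A1) is an inhibitor of cysteine proteases. The spleen of a newborn mouse is still a site of blood formation, so granule-forming cells of several stages are found in it.

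The genes lie on 6 chromosomes. In GRCm38, the build of the files, S100a8 (chr3:90668978-90670035, plus strand) and S100a9 (chr3:90692632-90695721, minus strand) are neighbours with 22596 bases between them. Camp (chr9:109847379-109849617, minus), Ngp (chr9:110419747-110423012, plus) and Ltf (chr9:111019271-111042767, plus) share chromosome 9. Retnlg (chr16:48872621-48874496, plus) and Stfa1 (chr16:36276951-36285373, plus) are on chromosome 16, Lcn2 (chr2:32384633-32388252, minus) on chromosome 2, Elane (chr10:79886247-79888215, plus) on chromosome 10 and Mpo (chr11:87793581-87804413, plus) on chromosome 11. Stfa1 belongs to a cluster of similar stefin genes, so the division of reads between Stfa1 and its relatives is uncertain.

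C/EBP factors and PU.1 drive many granule genes, so the 250 bases before each RefSeq transcript start (GRCm38.p6) were searched for a C/EBP-type motif, TTGCNNAA, and for the PU.1 core, GAGGAA, both on either strand, and for TATAAA on the gene strand. The C/EBP-type motif was found in 6 of the 10 (Lcn2, Ltf, Ngp, Retnlg, S100a9 and Stfa1), against 9.56% of all 32851 promoters. GAGGAA was found in 6 of the 10 (Elane, Lcn2, Ltf, Mpo, S100a8 and Stfa1), against 23.3% of all, and TATAAA only in S100a8, against 7.59% of all. A match is a description of these letters and not evidence of a bound site. The azurophil genes Mpo and Elane had no C/EBP-type match in this window, and neither had Camp and S100a8. In Lcn2 and Stfa1 the match starts 216 and 109 bases before the start, in bases that GENCODE places inside the gene. The other 4 genes with a match are shown beside Elane. Capitals mark the C/EBP-type match, which starts 236 bases before the start in S100a9, 138 in Ngp (which has a further match 11 bases before its start), 75 in Ltf and 246 in Retnlg. The sequences leave out bases that GENCODE places inside the gene and run 5′ to 3′ on the gene strand, over chr3:90695722-90695971 for S100a9, chr9:110419558-110419746 for Ngp, chr9:111019042-111019270 for Ltf, chr16:48872358-48872607 for Retnlg and chr10:79886062-79886246 for Elane.
S100a9: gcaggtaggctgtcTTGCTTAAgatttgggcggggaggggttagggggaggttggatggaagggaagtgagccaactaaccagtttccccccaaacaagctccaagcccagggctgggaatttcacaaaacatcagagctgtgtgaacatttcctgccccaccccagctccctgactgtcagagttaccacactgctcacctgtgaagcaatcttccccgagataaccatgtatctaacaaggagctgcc
Ngp: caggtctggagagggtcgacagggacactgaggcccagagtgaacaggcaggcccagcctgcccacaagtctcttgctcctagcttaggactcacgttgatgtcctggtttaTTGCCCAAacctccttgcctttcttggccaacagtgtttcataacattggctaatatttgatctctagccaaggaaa
Ltf: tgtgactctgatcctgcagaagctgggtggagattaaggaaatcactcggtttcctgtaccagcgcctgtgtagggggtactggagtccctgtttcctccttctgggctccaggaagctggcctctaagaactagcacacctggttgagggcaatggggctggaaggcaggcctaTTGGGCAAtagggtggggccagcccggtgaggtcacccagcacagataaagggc
Retnlg: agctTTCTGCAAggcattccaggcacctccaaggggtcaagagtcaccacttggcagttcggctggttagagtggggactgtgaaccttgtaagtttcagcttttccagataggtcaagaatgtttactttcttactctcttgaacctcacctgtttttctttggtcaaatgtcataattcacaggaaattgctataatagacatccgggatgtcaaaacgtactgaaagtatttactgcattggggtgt
Elane: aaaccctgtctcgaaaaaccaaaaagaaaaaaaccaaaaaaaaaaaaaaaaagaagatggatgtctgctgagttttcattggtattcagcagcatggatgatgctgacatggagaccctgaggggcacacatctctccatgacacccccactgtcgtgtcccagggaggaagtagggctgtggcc

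Barcodes were clustered without the 10 genes, the haemoglobin genes and the stefin relatives Stfa2, Stfa3, Stfa2l1, Cstdc4, Cstdc5 and Cstdc6. The levels of these genes below are thus read-outs that the clustering did not use. The stefin relative Csta2 was not left out. Of 14 clusters, cluster 12 was neutrophil-like. Its leading genes were Chil3, Wfdc21, Mmp8, Ifitm6, Lyz2, Anxa1, Csta2, Hp, Cd177 and Fcnb, and all 14 listed neutrophil genes that are not among the 10 were raised at least 2-fold in it. It held 91 WT barcodes, 1.13% (0.911 to 1.39) of those kept, and 84 KO barcodes, 0.61% (0.487 to 0.755), a KO minus WT difference of -0.52 percentage points (-0.801 to -0.266). Without the mitochondrial filter, which removed more WT than KO barcodes, it was -0.199 (-0.371 to -0.036). Such cells passed a gate for CD4+YFP+ cells, which neutrophils should not enter, so their share is not their share of the spleen. Cluster 11 was progenitor-like (Prtn3, Ctsg, Mcpt8 and Lyz2 led it) with 105 WT and 107 KO barcodes. Of its 10 leading genes, 2 (Prtn3 and Ctsg) were on the progenitor list, and others included the basophil gene Mcpt8 and the monocyte gene F13a1. Clusters 1, 3, 4, 5 and 6 were T-like, clusters 8 and 9 erythroid-like, and cluster 13 B-like. Clusters 2 and 7 had the T list (Cd3d, Cd3e, Cd3g, Trac, Trbc1 and Trbc2) at 96.6% and 95.5% of the mean of all barcodes, but were led by haemoglobin genes and are given by number. Clusters 10 and 14, in which T genes stood beside progenitor or macrophage genes, are also given by number.

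The calgranulins and specific granule genes among the 10 dominated the neutrophil-like barcodes, in whose definition they had no part. The 10 genes took 33.0% of all UMIs in WT and 29.9% in KO. Single WT barcodes ranged from 8.97% to 47.9% with a median of 32.4%, and single KO barcodes from 6.05% to 45.0% with a median of 32.1%. The ranges of the libraries overlapped almost entirely. S100a9 was the most abundant transcript of the 10 in both libraries, with 121896 CPM in WT and 109826 CPM in KO. S100a8 followed with 95700 and 75088 CPM. In this 3′ assay a UMI counts 1 transcript end, so levels of different genes are compared without division by length. Both calgranulins were detected in every neutrophil-like barcode of both libraries. Ngp (34670 and 30864 CPM), Camp (28064 and 23704), Lcn2 (13691 and 12415) and Ltf (7368 and 6599) came next in that order in WT and KO, whereas Stfa1 (22319 and 34531) stood below Camp in WT and above Ngp in KO. Retnlg had 5319 and 5519 CPM.

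**Figure D1:**
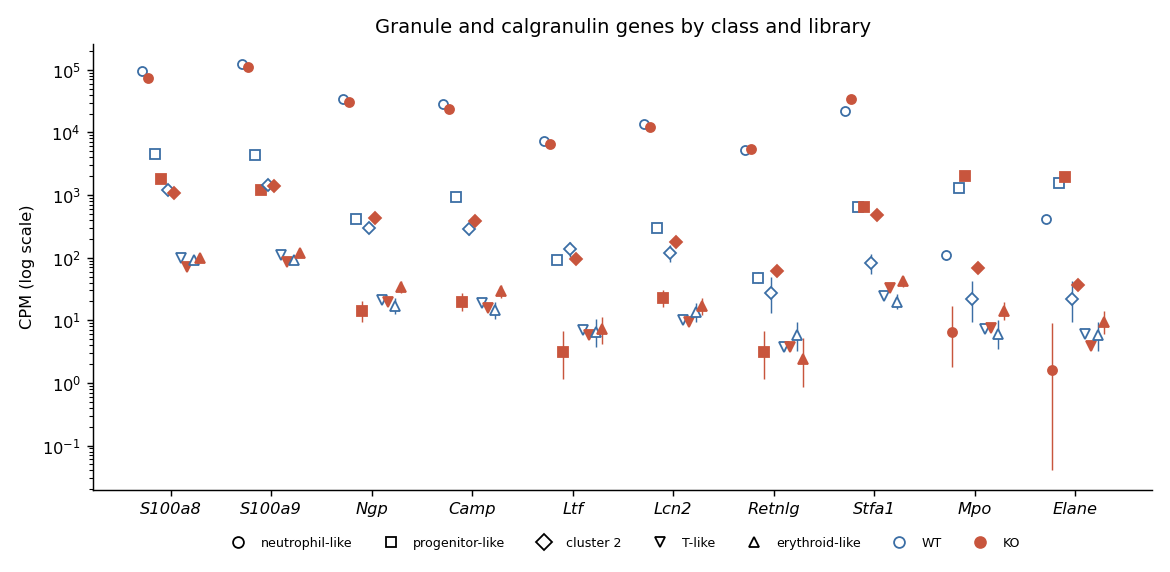
CPM of each of the 10 genes (log axis) in 5 sets of barcodes, with WT as open blue and KO as filled red symbols and 95% Poisson intervals as bars. The 8 genes other than Mpo and Elane sit at or above 5319 CPM in neutrophil-like barcodes and fall to between 3.75 and 109 CPM in T-like barcodes, while Mpo and Elane are highest in progenitor-like barcodes.

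The azurophil genes were nearly absent from the neutrophil-like barcodes. Mpo had 102 UMIs in WT (111 CPM) and 4 in KO (6.54 CPM), and Elane had 385 UMIs in WT (421 CPM) and 1 in KO (1.63 CPM). The WT values came from few barcodes: 5 of the 91 held 481 of the 487 UMIs of the pair, and 1 of them held 222. In the progenitor-like barcodes the same pair was prominent, with Mpo at 1313 CPM in WT and 1978 CPM in KO and Elane at 1532 and 1931 CPM. Progenitor-like barcodes held 82.1% of all kept Mpo UMIs in WT and 69.9% in KO, and 78.8% and 83.1% of all Elane UMIs. They were unevenly spread there too, since 15 of 105 WT and 16 of 107 KO barcodes had at least 100 UMIs of the pair and carried 91.7% and 89.8% of it. Only 28 WT and 36 KO barcodes had at least 10 UMIs of the pair, so these CPM are averages over a mixed cluster.

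The specific granule genes and calgranulins of the progenitor-like barcodes differed between the libraries more than the azurophil genes did. S100a8 had 4443 CPM in WT and 1835 CPM in KO, and S100a9 had 4310 and 1193 CPM. Camp had 1768 UMIs in WT and 38 in KO (933 and 19.7 CPM), and Ngp had 785 and 27 UMIs (414 and 14 CPM). These WT sums rest on a few barcodes. The leading 5 barcodes held 57.2% of the summed UMIs of the 10 genes in the WT cluster and 45.9% in the KO cluster, and the median barcode had 7 such UMIs in WT and 10 in KO, of medians of 16345 and 16159 UMIs in all. Summed over the 10 genes, the share of a single progenitor-like barcode ran from 0.00383% to 19.9% in WT and from 0 to 8.55% in KO.

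Within the neutrophil-like cluster Camp, Ngp and Retnlg varied along a common order, seen in both libraries. Ngp and Camp rose and fell together over single barcodes, with a Spearman rho of 0.827 over 91 WT and 0.869 over 84 KO barcodes. S100a8 and S100a9 did so with rho of 0.858 and 0.84. Camp and Retnlg ran in opposite directions, with rho of -0.707 in WT and -0.748 in KO. Against the summed share of the late genes Mmp8, Mmp9, Cxcr2 and Csf3r, Retnlg had rho of 0.796 and 0.743, while Camp had -0.659 and -0.604 and Ngp -0.571 and -0.577. Against the cycling genes (Mki67, Top2a, Birc5, Ccnb1, Hmgb2 and Stmn1), Camp had 0.341 and 0.336 and Retnlg -0.399 and -0.343. The 2 calgranulins had rho between -0.323 and -0.0322 with the late genes. Ltf (-0.105 in WT and -0.11 in KO), Lcn2 (-0.244 and -0.251) and Stfa1 (0.0168 and 0.259) also followed the late genes less. Some relations differed between the libraries. S100a8 had rho of 0.086 in WT and 0.624 in KO with Stfa1, and -0.0892 and 0.286 with the cycling genes. These are descriptions over barcodes of 1 library each, which share a UMI total as denominator, and Retnlg also fell with total UMIs, with rho of -0.612 in WT and -0.355 in KO.

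Stfa1 did not vary smoothly in WT. It was below 0.1% of UMIs in 34 of the 91 WT neutrophil-like barcodes, at about 0.2% in 2 and at 1.13% or more in 55, with no barcode between 0.21% and 1.13%. In KO it was never below 0.324% and reached 1% in 79 of 84 barcodes. The 34 low WT barcodes held 40 Stfa1 UMIs in all (133 CPM), although their median depth was 7998 UMIs. S100a8 was at a median of 8.6% of UMIs against 9.42% in the 55 high barcodes and S100a9 at 12.4% in each. The ranges of the low barcodes lay within those of the high ones for both calgranulins. The specific granule genes were higher in the low barcodes at the median, with Camp at 3.39% against 1.59% and Ngp at 3.82% against 2.75%, although their ranges overlapped from 0 up, and Chil3 had 3492 CPM against 1750 CPM.

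Of the stefin relatives named here, only Csta2 had not been left out of the clustering. It followed the same split, with 2 UMIs in the 34 low WT barcodes and 1152 in the 55 high ones, and 1374 in the 79 high KO barcodes. Cstdc6 went the other way: all 34 low barcodes had it, at 1114 CPM, against 359 CPM in the 55 high barcodes, where 31 had a UMI. Stfa3 had 9406 CPM in the low and 7779 CPM in the high barcodes. Stfa2 (9523 and 9240 CPM), Stfa2l1 (8532 and 8211 CPM) and Cstdc4 (17343 and 17674 CPM) were at like levels in the low and high WT barcodes. Over the whole neutrophil-like cluster, Stfa1 was 1.55 times as high in KO as in WT (1.52 to 1.58). The 55 high WT barcodes had 33950 CPM and the 79 high KO barcodes 36134 CPM, against 34531 CPM in all KO neutrophil-like barcodes. The high barcodes were chosen by Stfa1 itself, so their levels do not compare KO with WT as a whole. The cutoffs of 0.1% and 1% were chosen after the values were seen. Why the WT barcodes fall into separate groups was not tested, and neither the animals behind each library nor their haplotypes at the stefin cluster are given.

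**Figure D2:**
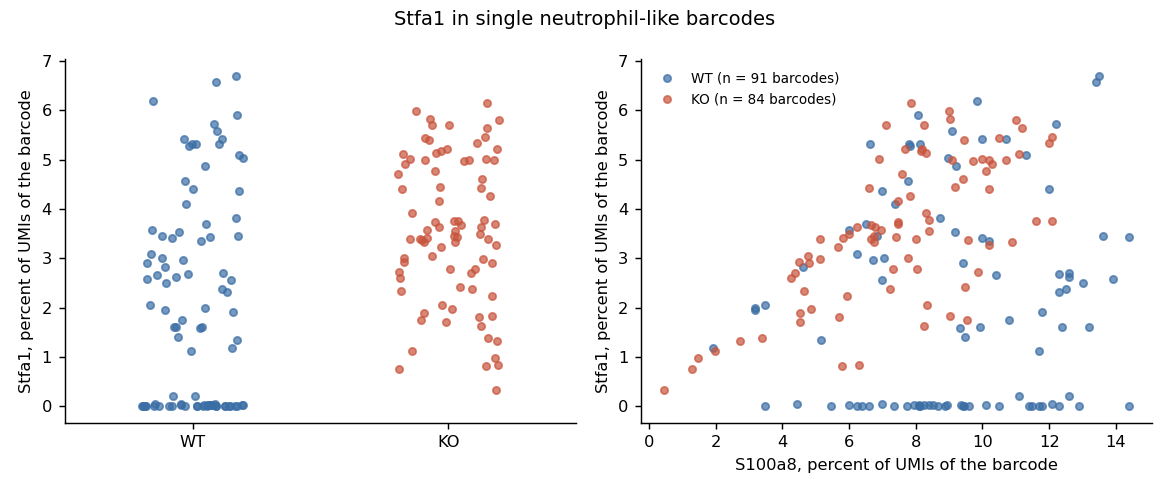
Stfa1 as a percent of the UMIs of each neutrophil-like barcode, by library (left) and against S100a8 (right), 1 point per barcode. In WT 34 of 91 points lie on the floor below 0.1% at S100a8 shares of 3.48% to 14.4%, and no KO point lies there.

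Other genes of the neutrophil programme are given beside the 10. Lyz2, Pglyrp1, Chil3, Fcnb, Mmp8, Mmp9, Cebpe and Cxcr2 were on the list that named the cluster and were not left out of the clustering. Their presence in it is therefore not an independent read-out. Of the specific granule genes listed, Lyz2 (lysozyme) had 9975 CPM in WT and 9424 in KO, Pglyrp1 (a peptidoglycan-binding protein) 3529 and 3451, and Chil3 (a chitinase-like protein) 2321 and 2413. Of 6 such genes past 200 UMIs, 1 was at least 1.5-fold lower in KO (Fcnb, 665 and 435 CPM, ratio 0.653, 0.563 to 0.756) and none was higher by that fold. Among the late genes, 1 of 6 was at least 1.5-fold higher in KO (Mmp9, 433 and 655 CPM, ratio 1.51, 1.31 to 1.74), and Mmp8 (collagenase) had 804 and 1149 CPM. Of 6 stefin relatives, Cstdc6 was lower (610 and 114 CPM), while Cstdc5, the most abundant, had 49279 and 33071 CPM. Of 6 transcription factors, 3 passed the minimum, Cebpe (645 and 495 CPM), Spi1 (522 and 428) and Cebpd (284 and 276), and none of them differed by 1.5-fold. Of the azurophil genes, Prtn3 alone passed 200 UMIs, at 428 CPM in WT and 14.7 CPM in KO. The receptors did not reach that minimum, the highest being Cxcr2 with 97 and 82 UMIs.

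Of the 10 genes, 9 had at least 200 UMIs in the neutrophil-like barcodes of both libraries together. Of these, 1 (Stfa1) was at least 1.5-fold higher in KO, and 1 (Elane) was at least 1.5-fold lower. Mpo had too few UMIs. Over all 748 genes past that minimum, 7.49% were higher and 3.74% lower by that fold. The median log2 ratio of KO to WT was -0.16 for the 9 genes and 0.08 for the 748. S100a8 had a ratio of 0.785 (0.776 to 0.794), and the other members but Stfa1, Mpo and Elane had ratios between 0.845 and 1.04. The summed level was 0.906 times as high in KO as in WT (0.901 to 0.911), a difference small beside the spread over single barcodes and without a replicate. With classes cut by UMIs of marker genes in place of clusters this ratio was 1.04.

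In the T-like barcodes the same genes were present at a far lower level. Their summed level was 306 CPM (301 to 311) in 6385 WT barcodes and 256 CPM (252 to 261) in 7478 KO barcodes, or 2.28 and 1.49 UMIs per barcode. Neutrophil-like barcodes exceeded this 1076-fold (1058 to 1094) in WT and 1165-fold (1142 to 1187) in KO. The fold was of the same order for each of the 8 genes other than Mpo and Elane, from 932 (Stfa1) to 1619 (Ngp) in WT and from 1038 (Stfa1) to 1596 (Ngp) in KO. S100a9 reached 109 CPM in WT and 85.8 CPM in KO, S100a8 99.3 and 72.0 CPM, and no other gene of the 10 exceeded 33.3 CPM.

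Red cell precursors and B cells, which should lack these transcripts, held them at levels of the same order. The 286 WT and 552 KO erythroid-like barcodes had 273 CPM (253 to 293) and 373 CPM (349 to 398), and the 44 and 32 B-like barcodes 422 CPM (336 to 524) and 361 CPM (267 to 478). With every barcode thinned to 1000 UMIs, 30.3% (29.2 to 31.5) of the T-like and 31.1% (25.2 to 37.4) of the erythroid-like WT barcodes had a UMI of any of the 10 genes. In KO the shares were 24.6% (23.6 to 25.6) and 33.9% (29.7 to 38.2). Unthinned, the shares were 84.1% and 77.6% in WT and 69.2% and 64.5% in KO, at median depths of 5807 and 5502 UMIs in WT and 4516 and 2434 in KO among the barcodes that could be thinned. Thinning left out 101 WT and 68 KO T-like and 51 WT and 44 KO erythroid-like barcodes with fewer UMIs. S100a8 alone was found in 11.4% of thinned T-like and 11.5% of thinned erythroid-like WT barcodes, and in 8.18% and 12.4% in KO. For any of the 10 genes the thinned share of T-like barcodes was below that of erythroid-like barcodes, within its interval in WT. Gene by gene the WT order was mixed, with Ngp in 2.45% of T-like and 1.7% (0.466 to 4.3) of erythroid-like barcodes and Stfa1 in 2.96% and 5.11% (2.67 to 8.75). At this depth the T-like shares were not above the erythroid-like shares beyond counting error. By summed CPM the libraries went in opposite directions. The erythroid-like level was 0.89 times (0.825 to 0.96) the T-like level in WT and 1.45 times (1.36 to 1.55) in KO. The source of the UMIs was not tested.

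The makeup of these UMIs in T-like barcodes was nearer to the neutrophil-like barcodes of the same library than to those of the other. The total variation distance between 2 makeups is the percentage of UMIs that would have to be moved to another gene to make them equal. For the 8 genes other than Mpo and Elane, the T-like makeup was 6.37% from the neutrophil-like makeup of its own library in WT and 6.39% in KO, and 9.2% and 7.21% from that of the other library. Stfa1 differed most between the libraries. It made up 6.77% (6.68 to 6.86) of the member UMIs in WT and 11.6% (11.4 to 11.7) in KO neutrophil-like barcodes, and 7.82% (7.39 to 8.27) and 13% (12.4 to 13.6) in T-like barcodes. Mpo and Elane together were 4.39% of the UMIs in WT and 4.41% in KO T-like barcodes, against 0.161% and 0.00274% in neutrophil-like and 20.3% and 51.1% in progenitor-like barcodes. With neutrophil-like and progenitor-like barcodes pooled as the reference, the distance over all 10 genes was 7.16% in WT and 5.82% in KO. S100a8 stood higher relative to S100a9 in T-like barcodes, with 0.915 UMIs per S100a9 UMI in WT against 0.785 in neutrophil-like barcodes, and 0.839 against 0.684 in KO.

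**Figure D3:**
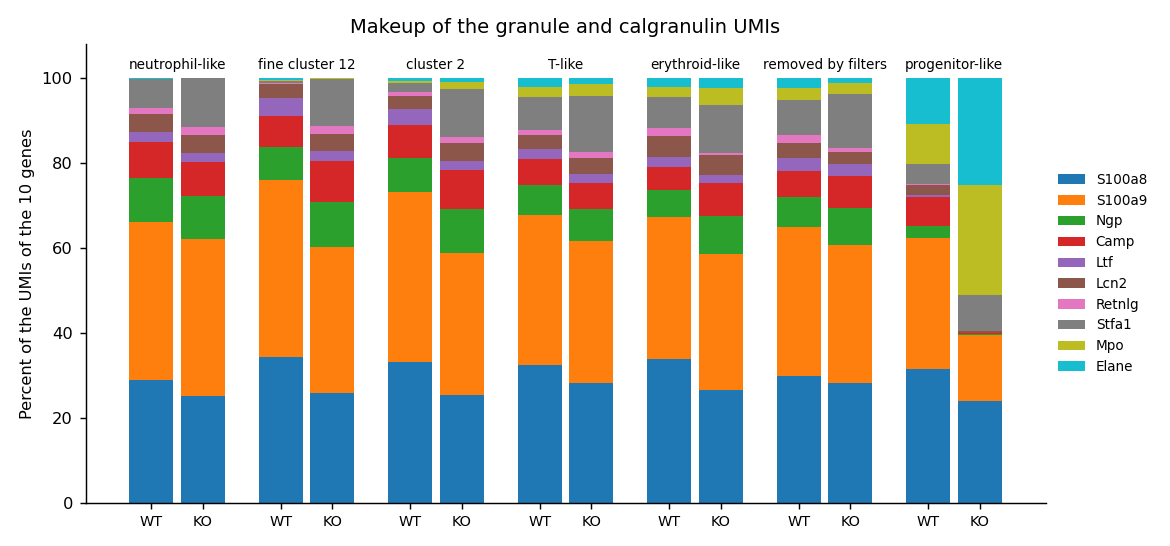
Stacked bars give each gene's percent of the UMIs of the 10 genes, for 7 sets of barcodes in each library. Stfa1 (grey) is broader in KO than in WT in neutrophil-like and T-like barcodes, and Mpo and Elane (olive and cyan) take 20.3% of the WT and 51.1% of the KO progenitor-like bars.

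The number of these UMIs changed less with depth than the number of T transcripts did. In WT T-like barcodes it was 0.921 per barcode below 1000 total UMIs, 1.53 between 2000 and 4000, 2.83 between 8000 and 16000 and 5.17 at 16000 or more. The T list rose over the same bins from 4.22 to 22.5, 74.4 and 126 UMIs. In CPM the 10 genes therefore fell, from 1042 (841 to 1277) to 228 (219 to 236), whereas the T list went from 4775 to 5539 CPM. KO T-like barcodes went from 0.603 to 3.86 UMIs and from 656 to 172 CPM. Erythroid-like WT barcodes went from 0.882 to 6.15 UMIs. Erythroid-like KO barcodes had 2.09 below 1000 total UMIs, more than the T-like ones, fell to 1.16 between 4000 and 8000 and had 4.32 at 16000 or more.

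Cluster 2 stood apart. It held 5184 KO barcodes, 37.7% (36.8 to 38.5) of those kept, but 215 WT barcodes, 2.67% (2.33 to 3.05). These barcodes were shallow, with medians of 1363 UMIs in KO and 870 in WT. Their T list was near that of T-like barcodes, with a mean of 949 CPM per gene in KO and 866 in WT against 1038 and 1116 CPM. The 10 genes summed to 4222 CPM (4178 to 4265) in KO and 3690 CPM (3497 to 3891) in WT, which is 16.5 times (16.1 to 16.8) and 12 times (11.4 to 12.7) the level in T-like barcodes. Haemoglobin transcripts, which are made by red cell precursors, were also high there, at 1.44% and 1.91% of UMIs against 0.107% and 0.0434% in T-like barcodes. Cluster 7 shared these traits but was mostly of WT, with 877 WT (10.9% of those kept) and 119 KO barcodes (0.864%). Its median depths were 669 UMIs in WT and 1002 in KO. The 10 genes had 1936 CPM (1829 to 2047) and 2754 CPM (2469 to 3063) there, and haemoglobin took 0.5% and 1.57% of UMIs. In 7 WT and 12 KO barcodes of cluster 7 the 10 genes took at least 1% of UMIs.

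The WT value of cluster 2 rests on 1 barcode, which held 799 of its 1370 UMIs of the 10 genes. The other 214 WT barcodes had 571 UMIs, or 1568 CPM. The median barcode was alike in the libraries, at 0.103% in KO and 0.0991% in WT. The upper tail differed: 716 of 5184 KO barcodes (13.8%, 12.9 to 14.8) and 9 of 215 WT barcodes (4.19%, 1.93 to 7.8) gave at least 1% of their UMIs to the 10 genes. This is a range and not a cell type, since 217 of the KO barcodes lay within 20% of that limit. Thinned to 1000 UMIs, 62.3% (60.8 to 63.7) of the 4248 deep enough KO barcodes had a UMI of any of the 10, above the 33.9% of erythroid-like KO barcodes. The intervals of these shares did not overlap.

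The mean number of these UMIs per barcode hardly changed with depth below 8000 total UMIs in KO cluster 2. It was 6.48 (6.31 to 6.64) below 1000 total UMIs, 7.1 between 1000 and 2000, 6.62 between 2000 and 4000 and 8.01 (7.48 to 8.56) between 4000 and 8000. Haemoglobin UMIs were as flat below 4000, at 22.0, 22.6 and 22.6 per barcode, and reached 78.1 in the deepest of these bins. The T list rose from 5.18 to 7.89, 15.3 and 26.6 UMIs. At the same depth of 1000 to 2000 UMIs, KO T-like barcodes had 1.03 UMIs of the 10 genes and KO erythroid-like barcodes 1.68. At that depth the Poisson intervals of cluster 2 (7.01 to 7.2) and of T-like (0.952 to 1.1) and erythroid-like barcodes (1.51 to 1.87) did not overlap. Such intervals treat each UMI as independent and leave out the spread between barcodes.

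**Figure D4:**
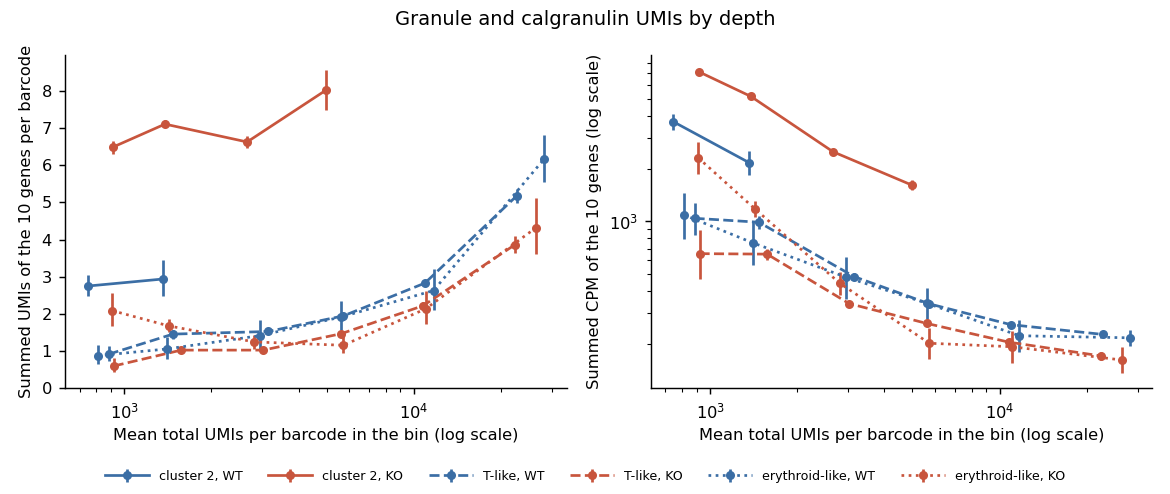
Summed UMIs of the 10 genes per barcode (left) and their CPM (right, log axis) against mean depth of the bin, with 95% Poisson intervals and without bins under 20 barcodes. The mean of KO cluster 2 stays between 6.48 and 8.01 UMIs in the bins shown, while T-like and erythroid-like KO barcodes have means of at most 2.09 below 8000 total UMIs.

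Within KO cluster 2 the T list was lower, and the neutrophil list higher, the more of a barcode's UMIs the 10 genes took. Barcodes with under 0.1% of UMIs in the 10 genes (2540 barcodes) had a mean of 964 CPM per T list gene and 7.04 CPM per gene of the non-member neutrophil list. The 259 barcodes at 2% to 5% had 878 and 170 CPM, the 61 at 5% to 10% had 770 and 346 CPM, and the 13 at 10% or more had 583 and 686 CPM. Neutrophil-like KO barcodes had 266 and 1655 CPM. Transcripts of T cells and of neutrophils thus stood in the same barcodes. Haemoglobin did not follow this order. It took 1.1% of UMIs in the barcodes under 0.1%, 3.91% in those at 1% to 2% and 1.14% in those at 10% or more. The makeup of the 10 genes in KO cluster 2 was 3.89% from that of neutrophil-like KO barcodes, nearer than the 8.8% of T-like barcodes. Stfa1 was 11.3% of it. In WT the order was reversed, at 9.61% for cluster 2 and 8.7% for T-like barcodes. There 1 barcode held 58.3% of the UMIs of the 10 genes in cluster 2.

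A finer clustering (resolution 1.0 in place of 0.5), again without the 10 genes, set 358 KO and 13 WT barcodes apart, and 4828 of the 5184 KO barcodes of cluster 2 stayed outside. This cluster, its number 12, had 7 non-member neutrophil genes among its 10 leading genes, and all 14 of the list were raised at least 2-fold. The T list stood at 837 CPM per gene in its KO barcodes and 550 CPM in its WT barcodes, so it was given no cell type name. The 10 genes took 3.49% of its UMIs in KO, with a median of 2.68% per barcode and a highest value of 43.3%, and S100a8 and S100a9 were found in 97.5% and 96.9% of its KO barcodes, Ngp in 85.8% and Stfa1 in 89.7%. In KO, Mpo and Elane were together 0.188% of the member UMIs, and the makeup was 3.06% from that of neutrophil-like KO barcodes. Its WT makeup was 12.5% from that of neutrophil-like WT barcodes, with 799 of 1144 UMIs in 1 barcode. Its median depth was 1116 UMIs in KO against 5312 in neutrophil-like KO barcodes, and its KO barcodes held 15963 UMIs of the 10 genes. Outside it, KO cluster 2 had 2469 CPM (2434 to 2503) and WT cluster 2 had 839 CPM (746 to 939), the WT barcode of 799 UMIs being in the finer cluster. The median Scrublet doublet score was 0.0431 in these KO barcodes, 0.0946 in KO cluster 2 and 0.0747 in KO T-like barcodes. The part of depth, haemoglobin RNA and doublets in the level of these barcodes was not tested.

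**Figure D5:**
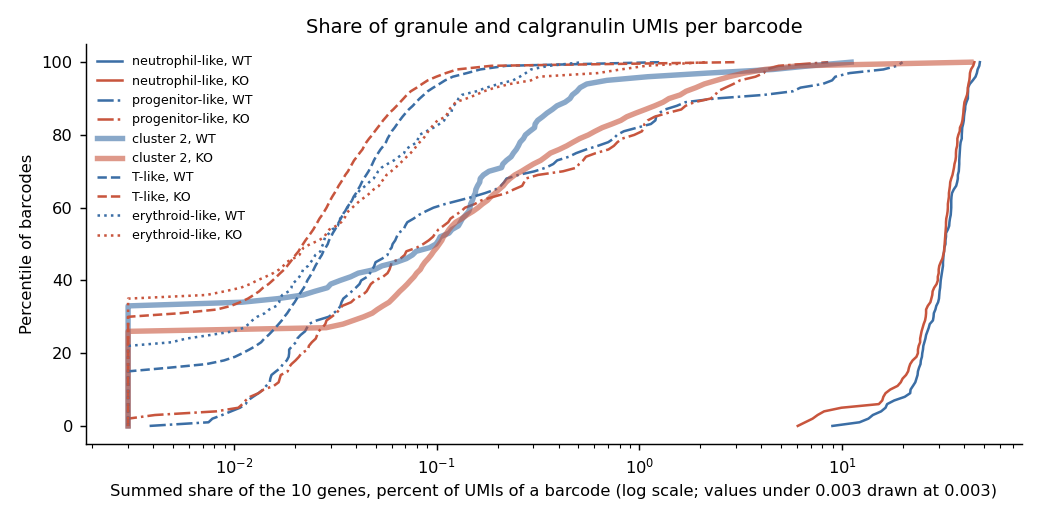
Percentile of barcodes against the summed share of the 10 genes in a barcode's UMIs (log axis), for 5 classes in WT (blue) and KO (red). Neutrophil-like barcodes start at 6.05%, T-like and erythroid-like barcodes run together with medians between 0.0219% and 0.029%, and cluster 2 (thick lines) has medians near 0.1% and a long upper tail in KO.

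The comparison of KO with WT in T barcodes turned on cluster 2. Over all 7 clusters with the T list, the summed level was 909 CPM (900 to 917) in KO and 354 CPM (348 to 359) in WT, a ratio of 2.57 (2.52 to 2.61). Without the mitochondrial filter it was 1.33. Of the 10 genes, 9 were at least 1.5-fold higher in KO, from 2.04 (S100a8) to 4.21 (Stfa1), Elane was at 1.24, and none was lower. Over the 10234 genes with at least 200 UMIs in these barcodes, 4.11% were higher and 9.28% lower by that fold. The median log2 ratio was 1.48 for the 10 genes and -0.06 for all genes. Haemoglobin genes had a ratio of 5.16 (5.1 to 5.22). Whether this and the ratio of the 10 genes have a common source was not tested.

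In the 5 T-like clusters the direction was the opposite. The summed ratio was 0.837 (0.817 to 0.858), with no gene at least 1.5-fold higher and 1, Elane, at least 1.5-fold lower (0.64, 0.526 to 0.776). Of 10068 genes tested there, 3.79% were higher and 9.21% lower by that fold, and the median log2 ratio was -0.20 for the 10 genes and -0.06 for all genes. S100a8 had 4716 UMIs in WT and 3126 in KO, a ratio of 0.725 (0.693 to 0.759), and S100a9 a ratio of 0.791 (0.758 to 0.825). Stfa1 was higher in KO, at 33.3 against 24.0 CPM (1.39, 1.28 to 1.5), as it was in neutrophil-like barcodes. Haemoglobin transcripts were 2.47 times as high in KO there. Cluster 2 itself had a ratio of 1.14 (1.08 to 1.21), which 1 WT barcode set: without it the ratio was 2.69 (2.48 to 2.93), and outside the finer cluster 12 it was 2.94 (2.63 to 3.31).

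By location, 87.1% of the WT and 74.0% of the KO UMIs of the 10 genes lay in neutrophil-like barcodes, and 7.68% and 5.97% in progenitor-like ones. Outside both were 5.24% (5.16 to 5.31) in WT and 20.1% (19.9 to 20.2) in KO. T-like barcodes took 4.2% in WT and 4.51% in KO, and cluster 2 took 0.396% in WT and 14.5% in KO. The KO excess outside the neutrophil and progenitor classes lay mostly in cluster 2.

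Cluster 10 held T transcripts beside azurophil genes. Its leading genes were Ctsg, Prtn3 and Ms4a3, all of promyelocytes, while its T list was at 72.8% of the mean of all barcodes. It held 204 KO barcodes (1.48%, 1.29 to 1.7) and 8 WT barcodes (0.0993%, 0.0429 to 0.196). In KO, Mpo made up 51.5% (48.8 to 54.3) and Elane 19.2% (17.1 to 21.5) of its UMIs of the 10 genes, against 25.8% and 25.2% in progenitor-like KO barcodes. Mpo was found in 142 of the 204 KO barcodes and S100a8 in 64. Mpo had 1699 CPM there, near its 1978 CPM in progenitor-like barcodes, at a median depth of 1696 against 16159 UMIs. The progenitor-like value is an average over a cluster in which 16 of 107 KO barcodes carried 89.8% of the Mpo and Elane UMIs. The 8 WT barcodes had 23 Mpo and 15 Elane UMIs.

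Outside the 10, the genes whose level followed them most closely were named by Pearson's r of log2(CPM + 1) with the summed members, over the 9 sums of a class in a library with at least 50 barcodes and 10583 genes. They were Ifitm6 (0.9955), Cd300lf (0.9947), Mapk13 (0.9939), Slpi (0.9916), Anxa1 (0.9912), Zfp516 and Cebpe (0.9875 each), Trem3 (0.9870), Plbd1 (0.9851) and Mcemp1 (0.9850). Ifitm6 (an interferon-induced membrane protein) had 2381 CPM in WT and 1670 CPM in KO neutrophil-like barcodes, and Slpi (a secreted inhibitor of leukocyte proteases) 752 and 846 CPM. Cebpe, the C/EBP factor of the specific granule stage, was the only transcription factor of the listed 6 among them. Cebpe was also on the list that named the neutrophil-like cluster, and Ifitm6 and Anxa1 were among its leading genes. The ranking thus partly repeats the definition of that cluster. The 9 sums share 2 libraries, and r is given as a description.

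The filters removed barcodes nearly all for more than 5% mitochondrial UMIs. In these the 10 genes had 1191 CPM (1170 to 1212) in WT and 942 CPM (921 to 964) in KO, or 1.91 and 1.69 UMIs per barcode. The leading barcode held 14.5% of these UMIs in WT and 19.2% in KO. Median depths were 1263 and 1361 UMIs, against 5733 and 4482 in T-like barcodes, which had 2.28 and 1.49 UMIs of the 10 genes per barcode. T-like barcodes of 1000 to 2000 UMIs had 1.46 and 1.03, or 990 CPM (908 to 1077) in WT and 652 CPM (606 to 701) in KO. The filters removed 44.6% of the WT barcodes for this reason and 24.1% of the KO barcodes.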

How the data were processed

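The authors deposited UMI counts per gene and barcode for 2 libraries of a 3′ droplet assay, 1 per genotype. Per the labels they were made with Cell Ranger 5.0.1 on mm10, and no normalization had been applied. The symbols were taken from the features table. Barcodes passed with 300 genes or more and no more than 5% of UMIs from mitochondrial genes. They were clustered with scikit-learn 1.9.0 and igraph 0.11.9 (2000 variable genes, 30 components, 20 neighbours, Leiden resolution 0.5). The 10 genes, their relatives other than Csta2, haemoglobin, mitochondrial, sex-linked genes and Zfp335 were left out. Clusters were named from marker lists. Levels are UMIs summed over a set of barcodes, in CPM. Intervals are exact Poisson, Clopper-Pearson or conditional binomial, and Newcombe's for a difference of shares. Doublets were scored with Scrublet in scanpy 1.11.5 and removed only in an alternative. Genes were counted as higher or lower from a fold of 1.5 at 200 UMIs or more. Genes named beside the 10 are the 3 most abundant of each role and the 10 most alike in pattern. Fcnb, Mmp9, Cstdc6, Csta2 and Stfa2l1 were named after their values were seen. The computation of ratios was tested on simulated counts. The members, lists and class rule were chosen with earlier results of these data known.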

Additional observations from a re-analysis of the deposited data

Results flagged for a closer look

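The KO to WT ratio of the summed 10 genes was 1.14 in cluster 2 and 0.837 in the T-like clusters, on opposite sides of 1. The difference between these ratios was not tested, and 1 WT barcode holds 58.3% of the WT UMIs of cluster 2, without which the ratio there was 2.69. In barcodes removed by the filters, which the main comparisons leave out, the 10 genes had 1191 CPM in WT and 942 CPM in KO, above the 306 and 256 CPM of T-like barcodes. The removed barcodes were shallower, with medians of 1263 and 1361 UMIs, and T-like barcodes of 1000 to 2000 UMIs had 990 and 652 CPM. In WT 14.5% and in KO 19.2% of the removed UMIs of the 10 genes lay in 1 barcode.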

How the results depend on the processing

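Of 32 alternatives of a result with a direction, 29 kept it and 3 reversed it. No paired analysis was possible because each genotype has 1 library. The reported values are -0.52 points (neutrophil-like share, KO minus WT), ratios of 2.57 (7 T clusters) and 0.906 (neutrophil-like), and 5.24% (WT) and 20.1% (KO) of UMIs outside the neutrophil-like and progenitor-like classes. Without the mitochondrial filter they were -0.199, 1.33, 0.937, 7.45% and 21%. Classes cut by marker UMIs in place of clusters gave ratios of 2.13 and 1.04, the latter reversed, and 8% and 21.6%. With doublets removed the neutrophil-like ratio was 0.9 and the outside shares 4.96% and 19%. With at least 500 genes the T ratio was 2.66 and the shares 4.87% and 19.7%. Resolution 1.0 gave a T ratio of 1.8, and clustering with the 10 genes a neutrophil-like ratio of 0.914. Means of single-barcode CPM gave 3.43 and 0.939, and scaling without the 10, haemoglobin and mitochondrial genes 0.866. Alternatives chosen after seeing the data reversed the T ratio without cluster 2 (0.803) and in the 5 T-like clusters (0.837), where the count of genes past the fold was 1, lower in KO, against 9 higher ones. They moved the cluster 2 ratio from 1.14 to 2.69 without 1 WT barcode and to 2.94 outside the finer cluster 12. Leaving out T barcodes with 1% or more gave 1.33, neutrophil-like barcodes without Stfa1 0.859, and removed barcodes counted 8.5% and 22.4%. No thinning moved 20 of 20 thinned shares, and 500 UMIs moved 18 of 20. The cause of the other shifts was not tested. With 1 library per genotype no spread between animals is known.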
